A study of Mus musculus with 28 samples.

Results

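Axon guidance ligands and receptors are the semaphorins with their plexin and neuropilin receptors, the netrins with the Unc5 receptors, the Slits with the Robos, and the ephrins with the Eph receptor tyrosine kinases. They were taken from the count table by gene symbol alone (Sema3 to Sema7, Plxna to Plxnd, Nrp1 and Nrp2, Ntn1 to Ntn5, Unc5a to Unc5d, Slit1 to Slit3, Robo1 to Robo4, Epha, Ephb, Efna and Efnb), not by a cut on their values. The table held 68 such genes of 29068, and 62 of these were among the 18107 genes with enough counts for the test. The mice were MLKL+/+ animals on a C57BL/6J background, 8 weeks old and of both sexes. Under isoflurane anaesthesia, on a clipped back wiped with alcohol, a full-thickness punch wound of 6 mm was made, the mice then lived alone with no treatment of the wound named, and the wound site was taken with its scab and margins. The groups were Day0, Day3, Day5, Day7, Day10, Day12 and Day14, with 4 libraries each and 28 in all, and Day0 is used as the control. The labels call the earliest time point Day0, whereas the earliest in the study's methods is day 1 after injury and the study elsewhere calls the day of wounding day 1, so that it is not settled whether the control is skin before or soon after wounding or how much of this procedure it had undergone, and the labels' design text speaks of 5 repeats where 4 were analysed here.

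In the embryo these ligands steer growing axons by attracting or repelling the growth cone, through receptors that act on the actin cytoskeleton. Class 3 semaphorins, netrins and Slits are secreted, most other semaphorins and the ephrin-B ligands span the membrane, and the ephrin-A ligands and Sema7a are held by a lipid anchor. In adult skin the same families are also made by keratinocytes, fibroblasts, vessels and immune cells, where they are known for roles in cell sorting, cell migration and vessel growth as well as in the guidance of nerve fibres.

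Between 36706513 and 40655764 counts were assigned to genes in each library. Levels are given as FPKM, the count scaled to the length of the gene and to the library total, and differences as log2 fold changes of the counts from edgeR's quasi-likelihood test on all 28 libraries. A gene is called higher or lower where the Benjamini-Hochberg adjusted p over the 18107 genes was under 0.05. The Day0 libraries stood apart from each other: the biological coefficient of variation was 26.4% on Day0 and 5.70% to 10.8% on the later days. Single libraries also stood apart on later days by the median chi-square of gene counts between pairs of libraries, which was 5.00 to 5.43 for pairs with Day5 replicate 4 (1.48 to 1.65 among the other 3), 3.42 to 3.82 for Day7 replicate 4 (1.84 to 1.97) and 3.50 to 3.75 for Day14 replicate 3 (1.75 to 2.42). Day0 replicates 1 and 4 held more skeletal muscle markers (summed CPM, the count scaled to the library total alone, of 32041 and 33669 against 19514 and 19958) and fewer fibroblast markers (25545 and 14698 against 57236 and 54994) than Day0 replicates 2 and 3, so counts of calls are also given with Day0 replicates 2 and 3 alone, a choice made after seeing the data. The skin label was checked against 7 keratinocyte markers, whose summed CPM ran from 3882 to 9526 in the libraries of all days. The tissue is a mixture, and in such bulk samples fewer cells of a type and less RNA per cell cannot be told apart.

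The stretch of 250 bases before the start of transcription is shown for 4 members, as examples of 4 time courses: Sema6b was highest on Day3, Sema3e lowest on Day3, Epha3 high from Day7 to Day14 and Epha1 highest on Day14. The sequences are from RefSeq on GRCm38.p6, the assembly of mm10, which the submitters' processing notes name. They are written 5′ to 3′ on the strand of the gene, and capitals mark matches to the GC box (GGGCGG) or the TCF/LEF site (CTTTGA) on either strand.
Sema6b promoter, chr17:56140344-56140593, minus strand: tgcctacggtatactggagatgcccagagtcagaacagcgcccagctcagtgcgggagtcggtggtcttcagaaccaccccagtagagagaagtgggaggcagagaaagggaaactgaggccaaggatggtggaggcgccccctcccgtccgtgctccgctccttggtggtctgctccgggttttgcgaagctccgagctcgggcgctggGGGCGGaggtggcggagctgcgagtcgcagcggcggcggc
Sema3e promoter, chr5:14025026-14025275, plus strand: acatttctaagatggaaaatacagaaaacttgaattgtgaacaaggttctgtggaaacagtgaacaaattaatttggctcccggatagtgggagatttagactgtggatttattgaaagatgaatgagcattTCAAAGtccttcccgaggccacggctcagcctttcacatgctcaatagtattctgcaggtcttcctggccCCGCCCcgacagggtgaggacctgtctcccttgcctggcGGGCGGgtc
Epha3 promoter, chr16:63864176-63864425, minus strand: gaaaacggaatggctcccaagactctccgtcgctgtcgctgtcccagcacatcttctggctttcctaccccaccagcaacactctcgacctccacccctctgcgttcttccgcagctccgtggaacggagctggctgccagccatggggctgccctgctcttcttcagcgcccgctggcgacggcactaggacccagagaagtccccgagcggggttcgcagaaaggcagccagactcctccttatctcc
Epha1 promoter, chr6:42373269-42373518, minus strand: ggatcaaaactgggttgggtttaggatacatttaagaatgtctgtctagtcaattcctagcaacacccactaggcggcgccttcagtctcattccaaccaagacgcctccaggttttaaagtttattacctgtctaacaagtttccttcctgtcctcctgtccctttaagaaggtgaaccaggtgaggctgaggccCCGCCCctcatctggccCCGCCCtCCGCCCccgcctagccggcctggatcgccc
The Sema6b stretch held 1 GC box and was 66.0% G or C, that of Sema3e held 2 GC boxes and 1 TCF/LEF site, that of Epha1 held 3 GC boxes, and that of Epha3 held none of the 5 motifs searched. RefSeq gave such a stretch for 59 of the 68 members. Their median share of G and C was 64.8%, against 52.0% for the 27025 promoters of all genes. A GC box was found in 43 of the 59 (72.9%; 32.9% of all promoters), an AP-1 site (TGANTCA) in 2 (3.39%; 6.87%), a TATA box (TATAAA) in 2 (3.39%; 13.0%), an E-box (CACGTG) in 3 (5.08%; 6.05%) and a TCF/LEF site in 4 (6.78%; 14.0%), with both strands searched and no overlap between the motifs excluded. A match is a run of letters and does not show that a factor binds there.

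All 62 members tested differed among the 7 days, as did 89.5% of all genes tested, and all 62 differed among the 6 wound days, as did 85.1% of all genes. Early in the wound more of them were lower than higher. On Day3, 33 members (53.2%) were lower than on Day0, where 34.8% of all genes tested were lower, and 16 (25.8%) were higher, where 31.8% of all genes were. On Day5, 32 (51.6%) were lower against 30.6% of all genes, and 18 (29.0%) were higher against 29% of all genes. The 2 directions came close on Day7, with 21 members lower (33.9%; 24.8% of all genes) and 23 higher (37.1%; 25.6%).

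From Day10 on more members were higher than lower. On Day10, 29 members (46.8%) were higher against 23.5% of all genes tested, and 13 (21.0%) were lower against 26.9%. On Day12, 29 (46.8%) were higher against 21.7% of all genes, and 13 (21.0%) were lower against 25.6%. Without a correction for library composition this split was 34 higher and 4 lower. The median log2 fold change of all genes was then 0.11, against -0.04 with the correction. On Day14, 28 members (45.2%) were higher against 28.2% of all genes, and 20 (32.3%) were lower against 34.5%. Between the late and the early wound, Day14 against Day3, 36 members (58.1%) were higher against 34.2% of all genes, and 19 (30.6%) were lower against 32.8%.

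With Day0 replicates 2 and 3 alone as the control, 64 members and 18861 genes had enough counts for the test. Of the members, 18 were higher and 39 lower on Day3, against 31.5% and 32.6% of all genes. On Day5 these were 19 and 34 (29% and 28.5% of all genes), on Day7 22 and 22 (25.6% and 22.3%), on Day10 28 and 18 (24.6% and 24.8%), on Day12 26 and 13 (22.8% and 24.3%), and on Day14 25 and 24 (28.9% and 32.7%). The order of the 2 directions was the same as with all 4 control libraries on Day3, Day5, Day10, Day12 and Day14, and on Day7 they were equal. Without Day5 replicate 4, 20 members were higher and 32 lower on Day5, without Day7 replicate 4, 24 and 20 on Day7, and without Day14 replicate 3, 25 and 22 on Day14.

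**Figure D1:**
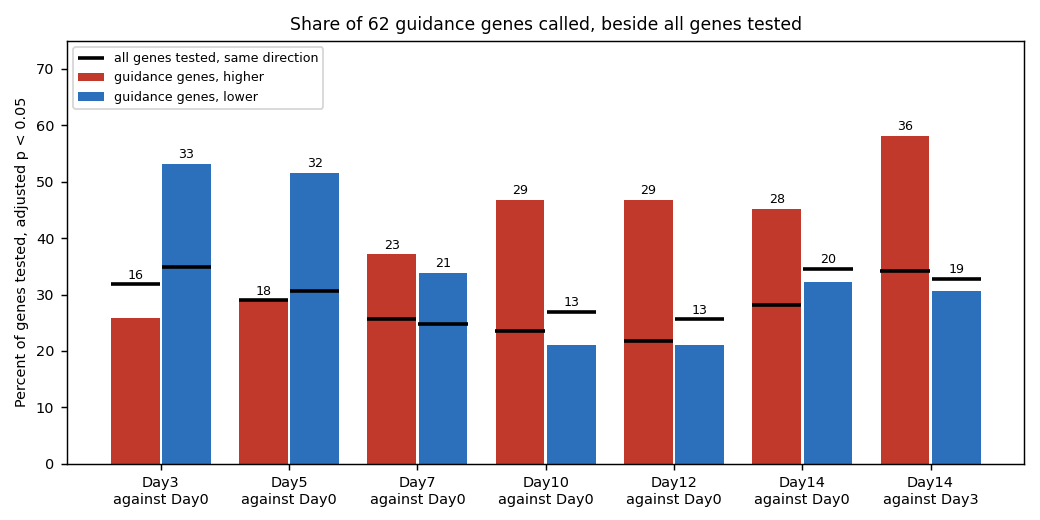
Percent of the 62 guidance genes tested that were called higher (red) or lower (blue) in each comparison, with the number of genes above each bar; black lines give the percent of all 18107 genes called in the same direction. The blue bars stand above their lines on Day3, Day5 and Day7 (53.2%, 51.6% and 33.9%), and the red bars stand above theirs from Day7 on and in Day14 against Day3 (58.1%).

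The study's own criteria are an unadjusted p under 0.05 with a rise or fall of more than 1.5 on the log2 scale. The study used them with DESeq2, and applied here to the edgeR values they kept fewer members. On Day3 they kept 1 higher member, Sema6b (6.5% of all genes were higher by these criteria), and 11 lower members (12.4% of all genes). On Day5 they kept 0 higher members (5.61%) and 7 lower members (8.31%). Of the members above Day0 on Day5, 18 had an unadjusted p under 0.05 in edgeR, and DESeq2 called 18 at an adjusted p under 0.05, so that it was the size of the change that fell short. On Day7 they kept Epha3 and Unc5c as the 2 higher members (4.66%) and Sema3e as the 1 lower member (4.74%). On Day10 the 3 higher members were Epha3, Ntn3 and Unc5c (4.33%) and the 2 lower members Efna3 and Sema3e (5.14%). On Day12 there were 3 higher members, Epha3, Ephb1 and Unc5c (3.89%), and 0 lower members (3.51%), where 15 members below Day0 had an unadjusted p under 0.05 in edgeR and DESeq2 called 13. On Day14 there were 5 higher (5.15%) and 4 lower (8.83%). The comparison of Day14 with Day3 stood apart from these, with 20 members higher (32.3%; 9% of all genes) and 3 lower (4.84%; 9.58%).

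The share of members with 1 direction through healing was close to that of all genes. On all 6 wound days 3 members (4.84%; 4.76% of all genes) were higher than on Day0, namely Ephb4, Nrp2 and Sema4c, the last 2 named for this count after their values were seen. On all 6 wound days 7 members (11.3%; 9.76% of all genes) were lower. These need a lower call on Day12, which 13 members had, and 4 without a correction for library composition. In contrast, 30 members (48.4%) were higher on some and lower on other days, against 23.8% of all genes, and 1 member, Slit3, was called on no wound day (1.61%; 9.24% of all genes). The lowest mean FPKM fell on Day3 for 31 of the 62 members (50%; 30.8% of all genes). The highest fell on Day10 for 13 members (21.0%; 10.5% of all genes) and on Day14 for 17 (27.4%; 28.2% of all genes).

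**Figure D2:**
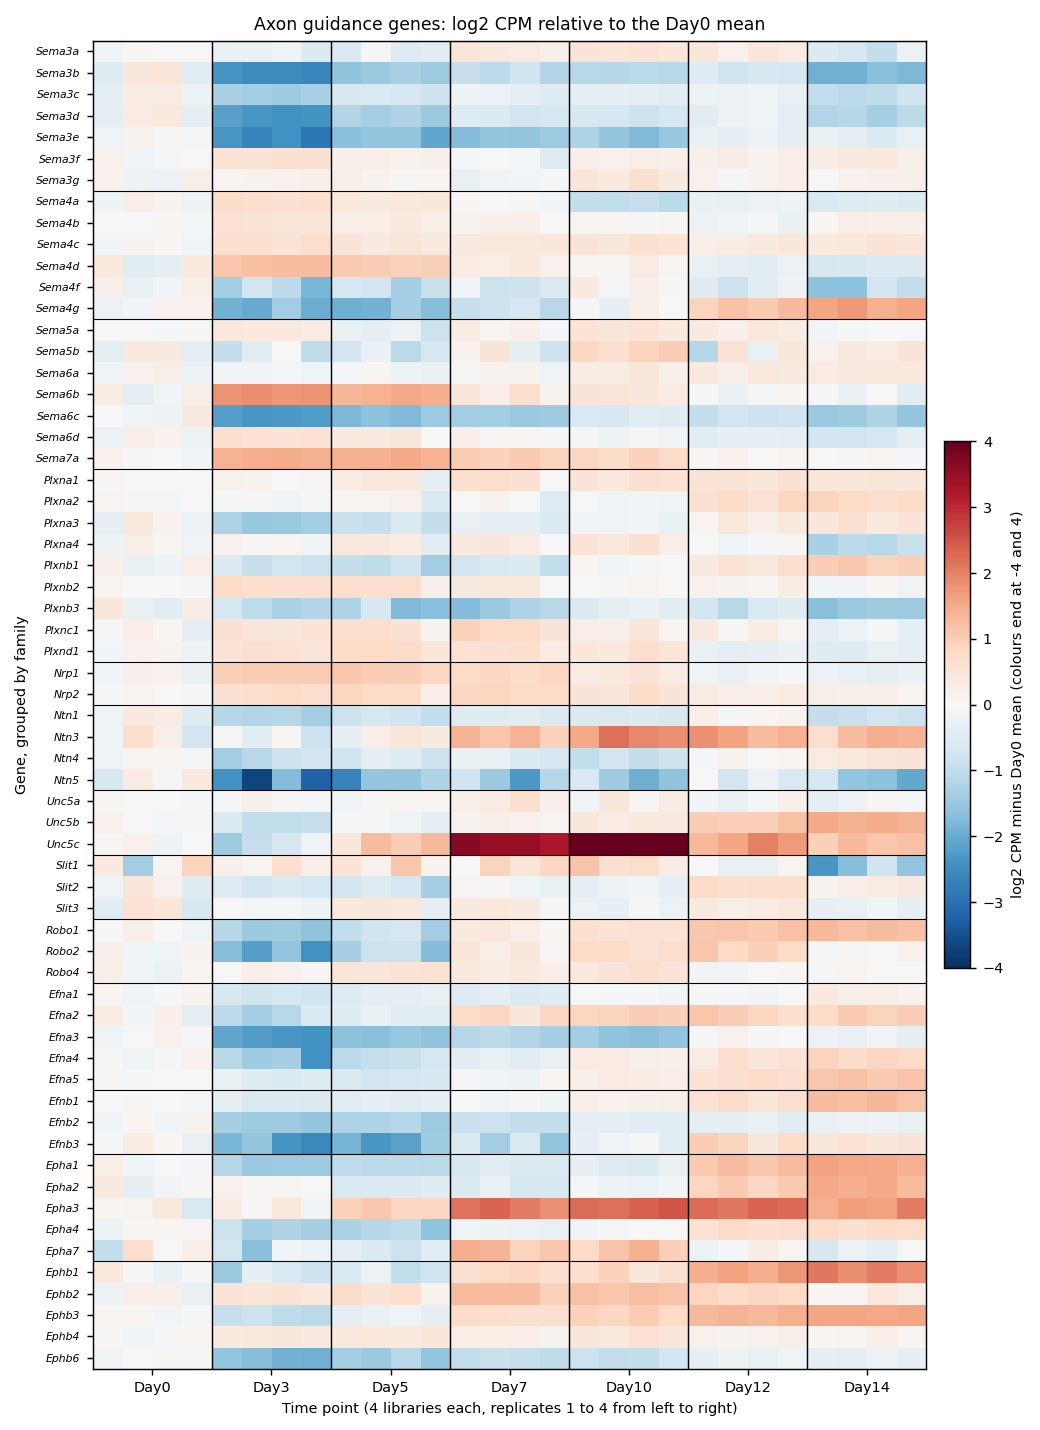
Log2 CPM of the 62 guidance genes tested in each of the 28 libraries, minus the gene's Day0 mean, with genes in rows grouped by family and the 4 libraries of each day side by side; colours end at differences of -4 and 4. Most rows turn blue on Day3 and Day5 (33 and 32 genes called lower), most Eph and ephrin rows turn red on Day12 and Day14, and Unc5c is the row with the darkest red, on Day7 and Day10.

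The families hold 2 to 9 tested genes each, and their counts stand beside 31.8% of all genes higher and 34.8% lower on Day3, 28.2% and 34.5% on Day14, and 34.2% and 32.8% in Day14 against Day3. Class 3 semaphorins are secreted ligands that mostly signal through a neuropilin bound to a plexin, and 5 of the 7 were lower on Day3 while 1 was higher, with a median log2 fold change of -1.38 beside -0.03 over all genes tested. Sema3b (chr9:107597674-107609229, minus strand) read 14.2, 27.2, 28.1 and 14.6 FPKM in the 4 Day0 libraries, 3.77, 3.31, 3.27 and 3.08 on Day3 and 5.71, 5.90, 6.56 and 6.37 on Day14. Every wound library of Day3 and Day14 was under every Day0 library, and among the Day0 libraries replicates 2 and 3, which also held the most fibroblast markers, read higher. Its log2 fold change was -2.59 ± 0.16 (SE, edgeR adjusted p = 4.99e-14) on Day3, -1.18 ± 0.15 (SE, edgeR adjusted p = 1.89e-07) on Day10 and -1.90 ± 0.15 (SE, edgeR adjusted p = 2.42e-11) on Day14. The Day3 value was -2.98 against Day0 replicates 2 and 3 alone.

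Sema3e, a ligand that binds plexin-D1 without a neuropilin, read 3.41, 4.20, 3.96 and 3.61 FPKM on Day0 and 0.733, 0.579, 0.674 and 0.474 on Day3, with no overlap. It stayed under the Day0 range on Day5, Day7 and Day10, where the 12 libraries lay between 0.864 and 1.67 FPKM. On Day12 it read 3.40, 3.36, 3.56 and 3.25, where 3 of the 4 libraries lay under the lowest Day0 value. The log2 fold change was -2.57 ± 0.12 (SE, edgeR adjusted p = 2.69e-16) on Day3, -1.72 ± 0.12 (SE, edgeR adjusted p = 7.49e-13) on Day5, -1.59 ± 0.12 (SE, edgeR adjusted p = 5.72e-12) on Day7 and -1.51 ± 0.12 (SE, edgeR adjusted p = 2.04e-11) on Day10, and it was still called lower on Day12 (-0.31 ± 0.11 (SE, edgeR adjusted p = 0.0255)) and on Day14 (-0.38 ± 0.11). Sema3d read 5.31, 8.59, 9.07 and 5.33 on Day0 and 1.46, 1.31, 1.23 and 1.24 on Day3, a log2 fold change of -2.38 ± 0.13 (SE, edgeR adjusted p = 7.88e-15). Sema3c, the most abundant of the class by mean FPKM, was 25.5 ± 5.90 FPKM (SD, n = 4) on Day0, 9.43 ± 0.443 FPKM (SD, n = 4) on Day3 and 23.7 ± 0.986 FPKM (SD, n = 4) on Day12, and was lower than the control on each of the 6 wound days, least so on Day12 (-0.25 ± 0.10 (SE, edgeR adjusted p = 0.0449)).

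The exception lay next to Sema3b. Sema3f, named here for its place after its values were seen, lies 72271 bases beyond the end of Sema3b on chromosome 9 (107681500 to 107710475, minus strand), and it read 7.90, 6.50, 6.85 and 7.01 FPKM on Day0 and 9.96, 10.0, 10.2 and 10.3 on Day3. All Day3 libraries stood above all Day0 libraries, a log2 fold change of 0.58 ± 0.08 (SE, edgeR adjusted p = 2.03e-07), in the opposite direction to its neighbour. The fibroblast markers were summed over 7 genes, of which none was at 0. They were 14698 to 57236 CPM on Day0, 21839 to 23946 on Day3 and 16388 to 19578 on Day14. Of the 7, 1 was called higher and 5 lower on Day3, and 0 higher and 7 lower on Day14. The part of these markers in the class 3 values was not tested.

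Among the class 4 semaphorins, which span the membrane, 4 of 6 were higher and 2 lower on Day3. Sema4d, a ligand of plexin-B receptors and of Cd72 on immune cells, read 7.76, 4.32, 4.48 and 7.72 FPKM on Day0, 12.2, 13.1, 13.3 and 13.2 on Day3 and 3.94, 4.16, 4.22 and 4.31 on Day14. The Day3 libraries were all above the Day0 libraries and the Day14 libraries all below those of Day3, while Day0 replicates 1 and 4 read higher than replicates 2 and 3. Its log2 fold change was 1.15 ± 0.13 (SE, edgeR adjusted p = 6.61e-09) on Day3, and -1.82 ± 0.13 (SE, edgeR adjusted p = 7.58e-13) for Day14 against Day3. Sema4a, known for costimulation of T cells and the most abundant of the class, was 12.6 ± 2.16 FPKM (SD, n = 4) on Day0, 19.1 ± 0.990 FPKM (SD, n = 4) on Day3 and 6.58 ± 0.279 FPKM (SD, n = 4) on Day10, higher on Day3 (0.65 ± 0.07 (SE, edgeR adjusted p = 1.27e-08)) and lower on Day10 (-0.99 ± 0.08 (SE, edgeR adjusted p = 1.9e-11)).

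Sema4g was the only 1 of the 6 class 4 members that was called higher on Day14 than on Day3. It read 1.09, 1.21, 1.47 and 1.47 FPKM on Day0, 0.337, 0.303, 0.465 and 0.303 on Day3, 0.316, 0.334, 0.505 and 0.377 on Day5 and 4.20, 4.82, 3.65 and 4.35 on Day14. The Day3 and Day5 libraries lay below all Day0 libraries and the Day14 libraries above them. The log2 fold change was -1.73 ± 0.16 (SE, edgeR adjusted p = 2.8e-10) on Day5 and 1.57 ± 0.14 (SE, edgeR adjusted p = 2.91e-10) on Day14. Its difference between Day14 and Day3 was the largest of the members, 3.41 ± 0.16 (SE, edgeR adjusted p = 1.12e-16), a rise of 10.6-fold (95% interval 8.40 to 13.4).

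The class 5 to 7 semaphorins held the largest early rises of the members. Sema6b (chr17:56123085-56140343, minus strand), a transmembrane ligand of plexin-A receptors whose promoter is shown above, read 2.54, 1.61, 1.86 and 2.47 FPKM on Day0, 7.02, 7.30, 6.75 and 6.91 on Day3, 5.05, 5.32, 5.86 and 5.46 on Day5 and 2.13, 1.94, 2.18 and 1.72 on Day14. The Day3 and Day5 libraries were all above the Day0 libraries, and the Day14 libraries lay within the Day0 range. It rose by a log2 fold change of 1.78 ± 0.12 (SE, edgeR adjusted p = 5.69e-13) on Day3, or 3.43-fold (95% interval 2.87 to 4.10), and of 1.40 ± 0.12 (SE, edgeR adjusted p = 1.14e-10) on Day5. Between Day3 and Day14 it fell, with a log2 fold change of -1.99 ± 0.12 (SE, edgeR adjusted p = 4.23e-14).

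Sema7a (chr9:57940112-57962865, plus strand), the lipid-anchored semaphorin that binds plexin-C1 and beta-1 integrin, read 7.12, 6.15, 6.40 and 5.96 FPKM on Day0, 16.3, 16.9, 17.2 and 16.4 on Day3 and 16.5, 16.9, 17.8 and 16.3 on Day5. It was 11.6 ± 0.567 FPKM (SD, n = 4) on Day10 and 7.09 ± 0.234 FPKM (SD, n = 4) on Day14, so the early libraries were high and the last ones near the control. The log2 fold change was 1.44 ± 0.06 (SE, edgeR adjusted p = 1.49e-17) on Day3 and 1.44 ± 0.06 (SE, edgeR adjusted p = 3.08e-17) on Day5. Sema6c, a relative of Sema6b, took the opposite course. It read 6.84, 5.98, 5.88 and 8.63 FPKM on Day0, 1.42, 1.29, 1.30 and 1.35 on Day3 and 2.60, 2.81, 3.05 and 2.57 on Day14. None of the wound libraries on these 2 days reached the Day0 range, and the log2 fold change was -1.44 ± 0.10 (SE, edgeR adjusted p = 1.28e-12) on Day7, -0.85 ± 0.10 (SE, edgeR adjusted p = 3.44e-08) on Day12 and -1.43 ± 0.10 (SE, edgeR adjusted p = 9.08e-13) on Day14. The macrophage markers, 6 genes of which none was at 0, summed to 1747 to 2676 CPM on Day0, 4738 to 4911 on Day3 and 862 to 924 on Day14, and the 6 neutrophil markers, of which Ly6g was at 0 on Day0, to 15.1 to 41.9, 4249 to 5369 and 15.2 to 18.5 CPM on the same days. All 12 of these markers were called higher on Day3. Both lists moved with the early rises of Sema4d, Sema6b and Sema7a. The 4 wound edge keratinocyte markers (Krt6a, Krt6b, Krt16 and Krt17) also rose, with 3 called higher and 0 lower on Day3. They summed to 468 to 709 CPM on Day0, 2454 to 2984 on Day3 and 1486 to 1792 on Day14. The part of these lists in the rises of the semaphorins was not tested. The skeletal muscle markers were 19514 to 33669 CPM on Day0 and 4238 to 5464 on Day3, all 8 of them called lower, and their part in the fall of Sema6c was not tested either.

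**Figure D3:**
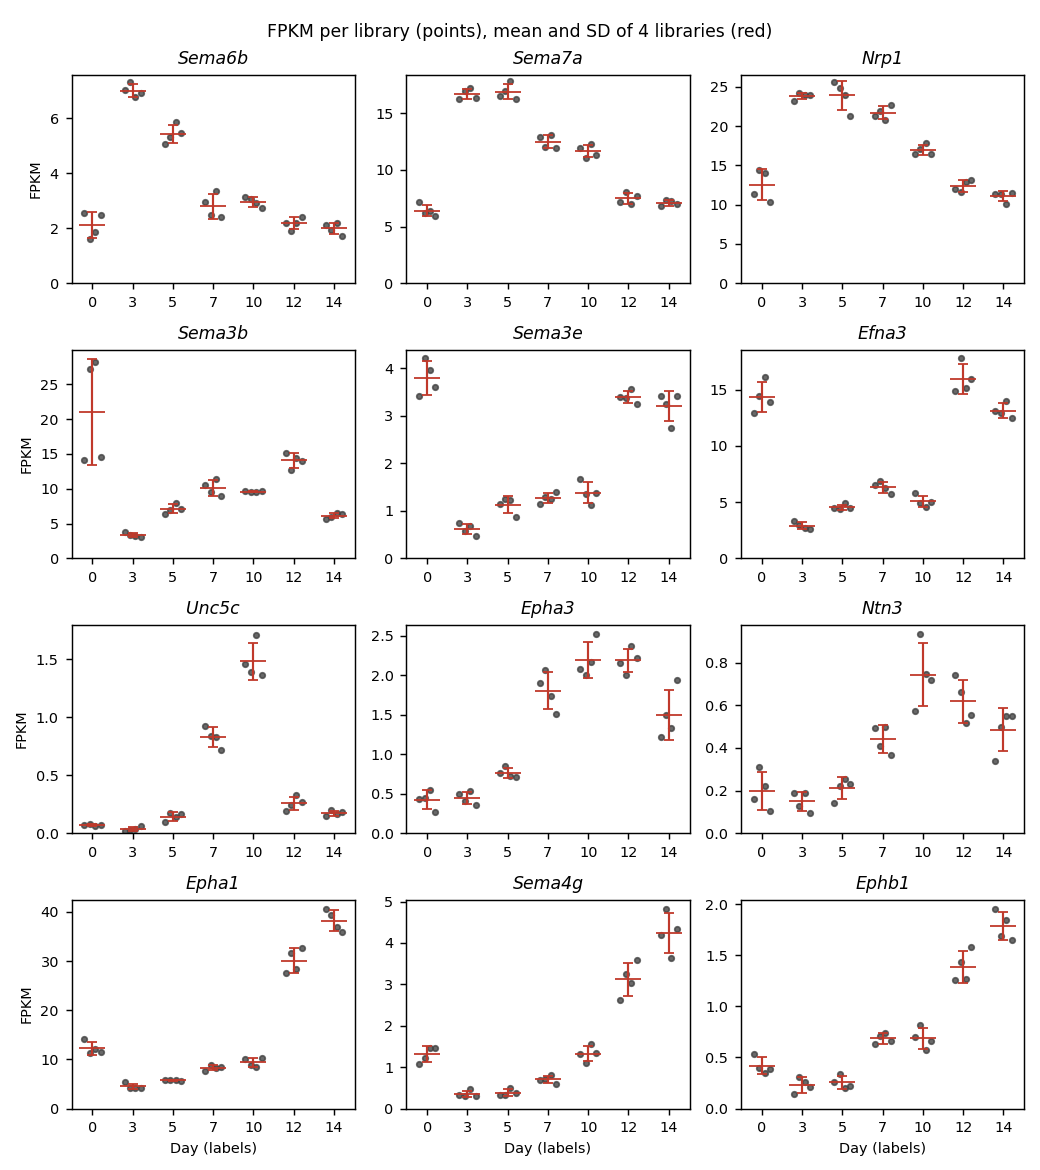
FPKM of 12 guidance genes on each day, with a point for each of the 4 libraries and the mean with its SD in red; all vertical axes start at 0. The top row is high on Day3 and Day5 (Sema6b, 7.00 FPKM on Day3), and the row below it is low from Day3 to Day10. The next row has its highest means on Day10 (Unc5c, 1.48 FPKM), and the bottom row is highest on Day14 (Epha1, 38.2 FPKM).

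The neuropilins, co-receptors for class 3 semaphorins and for VEGF, were both higher on Day3. Nrp1 (chr8:128358604-128503363, plus strand) read 11.3, 14.4, 14.1 and 10.4 FPKM on Day0, 23.2, 24.2, 23.9 and 24.0 on Day3 and 11.4, 11.4, 10.1 and 11.5 on Day14. The Day3 libraries were all above the Day0 libraries and differed little among themselves. Its log2 fold change was 0.98 ± 0.08 (SE, edgeR adjusted p = 6.85e-12) on Day3, declined to 0.38 ± 0.08 on Day10 and was -0.30 ± 0.08 on Day14. The endothelial markers, 8 genes of which none was at 0, summed to 541 to 727 CPM on Day0, 911 to 1003 on Day3 and 453 to 527 on Day14, with 5 called higher and 2 lower on Day3, and their part in the Nrp1 values was not tested.

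Of the 9 plexins, the signalling receptors for semaphorins, 3 were higher and 3 lower on Day3, shares close to those of all genes. Plxnb2, a receptor for Sema4d and Sema4c and the most abundant plexin, read 27.1, 25.1, 24.8 and 23.7 FPKM on Day0, 41.2, 39.2, 37.2 and 37.7 on Day3 and 39.5, 39.6, 40.0 and 27.7 on Day5. The Day3 libraries lay above all of Day0, and Day5 replicate 4 read lower than its companions. On the log2 scale the change was 0.68 ± 0.09 (SE, edgeR adjusted p = 2.36e-07) on Day3. Plxnb3, a receptor for Sema5a, was a scarce transcript, with 0.976, 0.593, 0.528 and 0.897 FPKM on Day0, 0.214, 0.254, 0.301 and 0.338 on Day7 and 0.242, 0.281, 0.278 and 0.287 on Day14. It fell by a log2 fold change of -1.44 ± 0.22 (SE, edgeR adjusted p = 4.83e-06) on Day7 and -1.59 ± 0.22 (SE, edgeR adjusted p = 6.79e-07) on Day14. On Day12 it was -0.78 ± 0.22 (SE, edgeR adjusted p = 0.00406), and that call was lost against Day0 replicates 2 and 3 alone (-0.35, adjusted p = 0.216 by edgeR). On Day14, 4 of the 9 plexins were higher and 4 lower than on Day3.

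Netrins are secreted ligands of Dcc, neogenin and the Unc5 receptors, and 3 of the 4 were lower on Day3, the other not being called. Ntn1, the most abundant, read 14.0, 20.2, 19.5 and 11.2 FPKM on Day0, 6.90, 6.76, 6.82 and 5.82 on Day3 and 19.8, 16.6, 18.3 and 19.1 on Day12. The Day3 libraries lay below all Day0 libraries, and those of Day12 lay within the Day0 range. Its log2 fold change was -1.25 ± 0.11 (SE, edgeR adjusted p = 2.12e-10) on Day3 and -0.90 ± 0.11 (SE, edgeR adjusted p = 9.02e-08) on Day14. Ntn3 was scarce on Day0, with 0.162, 0.312, 0.223 and 0.105 FPKM from 19 to 62 counts, and it read 0.574, 0.935, 0.747 and 0.716 FPKM on Day10. All Day10 libraries were above all Day0 libraries, a log2 fold change of 1.83 ± 0.26 (SE, edgeR adjusted p = 1.04e-06). Exons of Ntn3 overlap those of another gene on its own strand, so part of its reads cannot be told apart from that gene's. Ntn5, whose mean CPM stayed under 1 on every day and which is named after its values were seen, read 0.217, 0.446, 0.342 and 0.471 FPKM on Day0 and 0.0493, 0.00985, 0.0884 and 0.0197 on Day3. Its log2 fold change of -3.05 ± 0.51 (SE, edgeR adjusted p = 6.58e-06) was the lowest of the members on Day3, from 22 to 47 counts on Day0 and 1 to 9 on Day3. Its exons overlap those of a gene on the opposite strand over 407 bases, so these reads cannot be told apart from that gene's.

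The Unc5 family, netrin receptors that mediate repulsion, held the largest change of the members. Unc5c (chr3:141465216-141834924, plus strand) read 0.0712, 0.0792, 0.0599 and 0.0699 FPKM on Day0, from 22 to 30 counts. It read 0.926, 0.838, 0.834 and 0.720 on Day7, 1.46, 1.39, 1.71 and 1.36 on Day10, from 504 to 633 counts, and 0.194, 0.242, 0.330 and 0.267 on Day12. The groups of Day7 and Day10 lay far above every other day, and Day12 and Day14 remained above Day0. In the fit it changed by 1.08 ± 0.22 (SE, edgeR adjusted p = 0.000103) on Day5, 3.56 ± 0.20 (SE, edgeR adjusted p = 3.24e-14) on Day7, 4.34 ± 0.20 (SE, edgeR adjusted p = 8.97e-16) on Day10 and 1.73 ± 0.21 (SE, edgeR adjusted p = 1.05e-07) on Day12, and the Day10 rise was 20.3-fold (95% interval 15.1 to 27.2). On Day3 Unc5c was called lower than the control (-0.78 ± 0.26 (SE, edgeR adjusted p = 0.00962)), with 8 to 22 counts and an overlap of the libraries of both days. Of the 5 myofibroblast markers, 2 were called higher and 1 lower on Day10, with a median log2 fold change of 0.09. Postn, which encodes periostin, had a mean CPM of 328 on Day0, 3492 on Day7, 5237 on Day10 and 2307 on Day12, whereas Acta2, which encodes smooth muscle actin, had 390 on Day0 and 415 on Day10. The part of myofibroblast RNA in the Unc5c rise was not tested.

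Unc5b, the netrin receptor of endothelial tip cells, took a later course. It read 6.17, 5.49, 5.25 and 5.26 FPKM on Day0, 3.64, 2.70, 2.68 and 2.79 on Day3 and 17.1, 16.6, 16.3 and 16.0 on Day14. The Day3 libraries lay below and the Day14 libraries above all Day0 libraries. Its log2 fold change was -0.85 ± 0.08 on Day3 and 1.45 ± 0.08 on Day14. The endothelial markers summed to 541 to 727 CPM on Day0, 911 to 1003 on Day3 and 453 to 527 on Day14. Their part in the Unc5b values was not tested. Unc5d had at most 13 counts in any library and was not tested.

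Slits are secreted repellents whose receptors are the Robos. Slit3 was the most abundant Slit, and it read 19.1, 38.0, 35.6 and 16.5 FPKM on Day0 and 24.8, 23.6, 23.6 and 21.2 on Day3. The Day0 libraries fell into a higher and a lower pair that enclosed the Day3 values, with the higher pair again in replicates 2 and 3. No wound day was called, with log2 fold changes between -0.36 ± 0.18 (SE) on Day14 and 0.24 ± 0.18 on Day12, which against the Day0 spread leaves differences of this size undetected. Slit1 was scarce, with 5 to 18 counts in the Day14 libraries and 32 to 48 in those of Day3, and differed between them by a log2 fold change of -2.01 ± 0.40 (SE, edgeR adjusted p = 7.21e-05).

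Of the 3 Robos tested, 2 were lower on Day3 and the other was not called. Both of these, Robo1 and Robo2, were higher on Day14 than on Day3. Robo4, the endothelial member of the family and the most abundant, was 5.15 ± 0.725 FPKM (SD, n = 4) on Day0, 5.39 ± 0.484 FPKM (SD, n = 4) on Day3 and 7.66 ± 0.378 FPKM (SD, n = 4) on Day10, and was higher on Day10 (0.52 ± 0.08 (SE, edgeR adjusted p = 5.28e-06)). Its neighbour Robo3, which lies 554 bases further on chromosome 9, had at most 4 counts in any library and was not tested.

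Ephrins fell together at the start of healing and rose late. All 5 ephrin-A ligands and all 3 ephrin-B ligands were lower on Day3 than on Day0, with median log2 fold changes of -1.03 and -1.46, and all 8 were higher on Day14 than on Day3, with medians of 1.94 and 1.74 beside 0.04 over all genes. Against Day0, 4 ephrin-A and 2 ephrin-B ligands were higher on Day14 and 1 of each was lower. Efna3 read 12.9, 14.4, 16.1 and 13.9 FPKM on Day0, 3.31, 2.95, 2.70 and 2.59 on Day3, 5.78, 4.93, 4.56 and 5.00 on Day10 and 14.9, 17.8, 15.1 and 16.0 on Day12. It stayed below the Day0 range until Day10 and was back in or above it on Day12. The log2 fold change on Day10 was -1.56 ± 0.08 (SE, edgeR adjusted p = 9.68e-15). Its neighbours on chromosome 3, Efna1 (89271733 to 89281142) and Efna4 (89333390 to 89338028), lie 32757 and 10425 bases from it (Efna3, 89313899 to 89322965), and all 3 are on the minus strand.

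Efna1, the most abundant ephrin-A, was 25.7 ± 2.58 FPKM (SD, n = 4) on Day0, 14.8 ± 0.847 FPKM (SD, n = 4) on Day3 and 33.4 ± 1.52 FPKM (SD, n = 4) on Day14, so that on Day10, when Efna3 was low, it was -0.07 ± 0.06 from the control. Efnb1 read 13.9, 14.4, 14.0 and 13.1 FPKM on Day0, 10.4, 9.02, 9.10 and 8.90 on Day3 and 35.8, 35.7, 36.4 and 34.0 on Day14. The Day3 libraries were below and the Day14 libraries above the whole Day0 range, with log2 fold changes of -0.51 ± 0.06 and 1.23 ± 0.06. Efnb3 was scarce, with 0.418, 0.552, 0.472 and 0.365 FPKM on Day0 and 0.111, 0.0785, 0.0900 and 0.153 on Day5, from 14 to 27 counts, a log2 fold change of -2.02 ± 0.25 (SE, edgeR adjusted p = 7.33e-08).

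The Eph receptors, tyrosine kinases on the cell that meets the ephrin, divided between early and late courses. Among the 5 EphA receptors tested 3 were lower on Day3 and the other two were not called, and 4 were higher on Day14 and the other was not called. Epha1 (chr6:42358487-42373268, minus strand), a receptor of the epidermis and the most abundant EphA, read 14.2, 11.3, 12.0 and 11.4 FPKM on Day0, 5.37, 4.23, 4.25 and 4.17 on Day3, 10.1, 8.92, 8.37 and 10.3 on Day10, 27.6, 31.6, 28.4 and 32.7 on Day12 and 40.6, 39.3, 36.9 and 36.0 on Day14. The step between Day10 and Day12 separated the low libraries from the high ones without overlap. Day14 exceeded Day3 by a log2 fold change of 2.90 ± 0.09 (SE, edgeR adjusted p = 3.55e-21), or 7.47-fold (95% interval 6.60 to 8.45). Exons of Epha1 overlap those of a gene on the opposite strand over 156 bases, and since the strand setting of the counting is not given, a share of its reads cannot be told apart from that gene's. The same holds for Unc5c over 118 bases, Efna3 over 149, Ephb1 over 152, Ephb4 over 33 and Sema4c over 334, and the exons of Nrp1 and Sema4a hold a microRNA gene on their own strand.

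Epha3 (chr16:63543534-63864175, minus strand), a receptor of mesenchymal cells, rose between Day3 and Day7. It read 0.433, 0.443, 0.556 and 0.269 FPKM on Day0, 0.493, 0.406, 0.535 and 0.365 on Day3, 1.90, 2.07, 1.74 and 1.51 on Day7, 2.08, 2.01, 2.16 and 2.53 on Day10 and 1.22, 1.495, 1.33 and 1.94 on Day14. The libraries of Day7, Day10 and Day14 were all above those of Day0 and Day3. Its change on the log2 scale was 2.08 ± 0.16 (SE, edgeR adjusted p = 2.34e-11) on Day7, 2.31 ± 0.16 (SE, edgeR adjusted p = 4.29e-12) on Day10, 2.22 ± 0.16 (SE, edgeR adjusted p = 1.65e-11) on Day12 and 1.68 ± 0.16 (SE, edgeR adjusted p = 8.78e-10) on Day14. Epha5, Epha6, Epha8 and Epha10 had at most 14, 7, 17 and 29 counts in any library and were not tested.

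Among the 5 EphB receptors 2 were higher and 3 lower on Day3. Ephb4, the receptor that marks veins and binds ephrin-B2, was the most abundant and moved little: 14.6 ± 0.865 FPKM (SD, n = 4) on Day0, 18.6 ± 0.530 FPKM (SD, n = 4) on Day3 and 21.2 ± 0.841 FPKM (SD, n = 4) on Day10, with log2 fold changes between 0.14 ± 0.05 on Day14 and 0.48 ± 0.05 on Day10. Ephb2 read 1.08, 1.51, 1.47 and 1.03 FPKM on Day0 and 3.02, 2.93, 2.92 and 2.42 on Day7, without overlap, a log2 fold change of 1.15 ± 0.12 (SE, edgeR adjusted p = 4.16e-09). Ephb1 read 0.538, 0.397, 0.344 and 0.391 FPKM on Day0, 0.138, 0.313, 0.257 and 0.214 on Day3, 1.25, 1.43, 1.26 and 1.58 on Day12 and 1.95, 1.69, 1.84 and 1.65 on Day14. All Day12 and Day14 libraries were above the Day0 range and all Day3 libraries below it. Relative to Day0 the log2 change was 1.58 ± 0.18 (SE, edgeR adjusted p = 3.44e-08) on Day12, 1.97 ± 0.18 (SE, edgeR adjusted p = 2.15e-10) on Day14 and 2.77 ± 0.19 (SE, edgeR adjusted p = 3.29e-13) for Day14 against Day3.

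The hair follicle markers, 8 genes of which none was at 0 on any day, were lower on Day3 than on Day14, as were Sema4g, Unc5b, Epha1, Ephb1 and the 8 ephrins. Their summed CPM was 286 to 2299 on Day0, 7.99 to 14.8 on Day3, 13.5 to 21.4 on Day5, 1346 to 1838 on Day7, 301 to 352 on Day10, 4907 to 6442 on Day12 and 4743 to 6364 on Day14, and all 8 were called lower on Day3 and higher on Day12 and Day14. Between Day7 and Day10 the sum of the markers fell. Of the genes just named, Efna3 went from a mean of 6.34 ± 0.490 FPKM (SD, n = 4) to 5.07 ± 0.513 FPKM (SD, n = 4). Ephb1 went from 0.686 ± 0.0520 FPKM (SD, n = 4) to 0.687 ± 0.103 FPKM (SD, n = 4). Each of the others had a higher mean FPKM on Day10 than on Day7. Among these, Efnb1 went from 13.0 ± 0.572 FPKM (SD, n = 4) to 16.8 ± 0.534 FPKM (SD, n = 4). The part of hair follicle RNA in the late values was not tested.

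**Figure D4:**
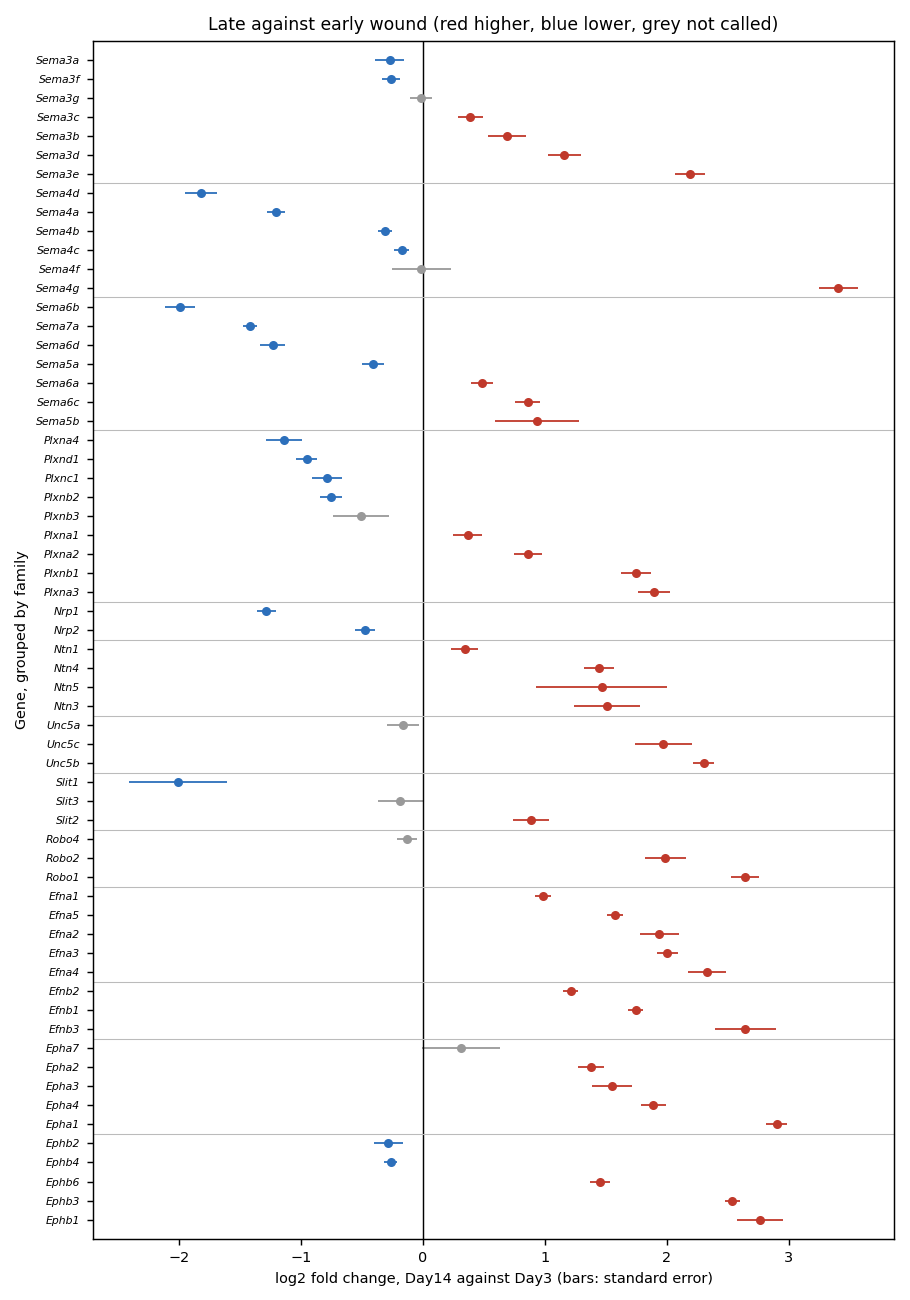
Log2 fold change of each of the 62 guidance genes tested between Day14 and Day3, with its standard error, grouped by family; red marks genes called higher (36), blue genes called lower (19) and grey genes not called. All 8 ephrins and all 4 netrins lie to the right of 0, both neuropilins lie to the left, and Sema4g is farthest to the right at 3.41.

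RNA of nerve cell bodies and axons was low in all libraries. Of 8 neuron markers, Prph, Nefl, Nefm, Nefh, Rbfox3 and Snap25 had mean CPM under 1 on every day, and the summed CPM of 10.6 to 26.7 came from Tubb3 and Stmn2. The Schwann cell markers, 8 genes of which none was at 0, summed to 582 to 989 CPM on Day0, 163 to 170 on Day3 and 211 to 272 on Day14, with 7 called lower and 1 higher on Day3. They were thus low on Day3 together with the 33 members called lower then, and their part in those calls was not tested.

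Other genes of the pathway were read from 3 lists, whose counts stand beside 31.8% of all genes higher and 34.8% lower on Day3, 29% and 30.6% on Day5, 25.6% and 24.8% on Day7, 23.5% and 26.9% on Day10, 21.7% and 25.6% on Day12, 28.2% and 34.5% on Day14, and 34.2% and 32.8% in Day14 against Day3. Of 18 further receptors and co-receptors, 9 were higher and 7 lower on Day3, 7 and 6 on Day5, 4 and 2 on Day7, 6 and 3 on Day10, 8 and 3 on Day12, 6 and 7 on Day14, and 7 and 7 in Day14 against Day3. Dcc and Neo1, the attractive netrin receptors, were both called lower on Day3. Dcc was near the limit of the counts, with 4, 1, 4 and 9 counts in the Day0 libraries and 0 counts in all 4 libraries of Day3, which allows up to 3 counts in each, so no fold is given. It had 56, 35, 27 and 47 counts on Day14, above every Day0 library, a log2 fold change of 3.02 ± 0.54 (SE, edgeR adjusted p = 2.79e-05). Neo1 fell on Day3 (-0.84 ± 0.10, SE) and was above Day0 on Day14 (0.74 ± 0.10, SE).

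Of 12 further ligands, 3 were higher and 7 lower on Day3, 3 and 6 on Day5, 4 and 5 on Day7, 3 and 5 on each of Day10, Day12 and Day14, and 6 and 5 in Day14 against Day3. Draxin, a repellent that binds netrin-1 and Dcc, had 40, 35, 20 and 20 counts on Day0 and 790, 609, 715 and 619 on Day3. It rose on Day3 by 4.62 ± 0.19 (SE) on the log2 scale and was still 1.61 ± 0.20 above Day0 on Day14. Ntng1, a membrane-anchored netrin relative, fell on Day3 (-2.58 ± 0.29, SE). Of 41 cytoplasmic effectors, such as the collapsin response mediators, 14 were higher and 13 lower on Day3, 14 and 10 on Day5, 17 and 10 on Day7, 12 and 15 on Day10, 13 and 8 on Day12, 11 and 16 on Day14, and 12 and 19 in Day14 against Day3. Rnd1, a GTPase that plexins bind, rose on Day3 (2.83 ± 0.14, SE). The 5 genes named here from these lists were chosen after their values were seen.

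Over all members, 31 stood below and 16 above Day0 without overlap on Day3, as did 28.6% and 28.2% of all genes tested. On Day14, 35 stood above and 19 below Day3 without overlap, as did 32.1% and 31.8% of all genes tested.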

How the data were processed

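RNA of 28 libraries, 4 from each of 7 days of natural wound healing, was read from 2 tables. The authors deposited raw counts per gene symbol without normalization, and a second table of FPKM values, each equal to the count divided by a constant gene length and the library total. The reagents named for this work are TRIzol and the VAHTS Universal V6 kit. The submitters' processing notes name fastp, R 3.2.0 and mm10. The aligner, the counter, the annotation and the strand setting are not given in the sources used here, so reads of overlapping genes cannot be told apart: exons of 18 members overlap another gene in GENCODE M21, 4 of them on the same strand.

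The test on the counts was that of edgeR 4.0.16 under R 4.3.3 (filterByExpr on the day groups, TMM scaling, glmQLFit and glmQLFTest, two-sided, 1 fit of all libraries, 21 residual degrees of freedom) and adjusted by the Benjamini-Hochberg method over 18107 genes. Library totals of 36706513 to 40655764 set the precision, and a count of 0 allows up to 3 counts, for counting error only. The labels do not say that replicates are separate animals, so p-values measure the spread between these samples, which may be technical.

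The gene families to report and the lists of markers and pathway genes were chosen with earlier results of these data known, and within the families every symbol was taken. The genes named were the 3 largest increases and 3 largest decreases per wound day and in Day14 against Day3 (adjusted p under 0.05, a mean CPM of 1 or more on the higher day, no overlap between the 4 libraries of each day), and the most abundant member of each family by FPKM. Coordinates are those of GENCODE M21 on GRCm38, the assembly of mm10. The alternatives were DESeq2 1.42.0 (on all or on 8 libraries), scaling by the upper quartile, by DESeq2's size factors or by totals alone, other filters, edgeR on 8 libraries, the replicate number as a block, limma 3.58.1 on log2(FPKM + 1) or log2(FPKM + 0.1), the study's criteria, and each library left out.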

Additional observations from a re-analysis of the deposited data

Results flagged for a closer look

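In 14 of 203 groups of 4 libraries, 1 library of a named gene lay far from the other 3 on the log2 CPM scale, where chance would give about 10.2 groups. Of these 14 values, 6 came from replicate 4 of Day5 or Day7. In Day7 replicate 4, Ephb2 read 4.757 (others 5.057 to 5.093), Ephb4 6.165 (others 6.283 to 6.307), Plxnb2 7.675 (others 8.041 to 8.100) and Slit3 6.957 (others 7.388 to 7.451). In Day5 replicate 4, Plxnb2 read 7.867 (others 8.358 to 8.372) and Slit3 6.686 (others 7.448 to 7.489), so the same 2 genes were low in replicate 4 of both days. In Day3 replicate 1, Efnb1 read 5.194 (others 5.008 to 5.031), Epha1 4.244 (others 3.913 to 3.930) and Unc5b 4.491 (others 4.078 to 4.142), all above the other libraries. The remaining values were Ntn1 in Day3 replicate 4 (5.172, others 5.363 to 5.387), Efna1 in Day10 replicate 1 (5.429, others 5.333 to 5.344), Sema4d in Day10 replicate 3 (5.644, others 5.393 to 5.421), Unc5b in Day12 replicate 4 (6.221, others 6.007 to 6.035) and Ephb4 in Day14 replicate 3 (6.298, others 6.104 to 6.134).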

How the results depend on the processing

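Of 858 values of 42 named changes under other settings, 857 kept their direction and their side of the threshold, 0 reversed, and 1 lost its call (Plxnb3 on Day12, -0.35 with Day0 replicates 2 and 3 only). Of the counts, 359 stayed within 1.5 times. The study's criteria, which also ask for a log2 fold change over 1.5, gave 1 higher and 11 lower on Day3, 0 and 7 on Day5, 2 and 1 on Day7, 3 and 2 on Day10, 3 and 0 on Day12, 5 and 4 on Day14, and 20 and 3 in Day14 against Day3. Members lower on Day12 numbered 13, and 4 with no composition normalization, 4 with limma on log2(FPKM + 1), 4 with limma on log2(FPKM + 0.1) and 3 with limma at a mean FPKM of at least 1. That last setting, which tested 48 members, also gave 12 lower on Day14 in place of 20, and 12 lower in Day14 against Day3 in place of 19; the causes of the other moves were not tested. The median log2 fold change of all genes was -0.12 on Day3 and 0.17 in Day14 against Day3 with upper quartile scaling. Without composition normalization it was 0.11 on Day12 and 0.22 in Day14 against Day3. With TMM scaling the same medians were -0.03 on Day3, -0.04 on Day12 and 0.04 in Day14 against Day3. With 1 library left out, members lower on Day3 ranged from 32 to 35 and members higher on Day10 from 27 to 29.

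With the replicate number as a block, the members higher and lower were 16 and 33 on Day3, 18 and 32 on Day5, 23 and 20 on Day7, 30 and 13 on Day10, 29 and 12 on Day12, 27 and 21 on Day14 and 36 and 18 in Day14 against Day3, close to the values without this replicate block. The deviations of same-numbered libraries from their day means had a median correlation of -0.0009 over 84 pairs, and 1 pair was over 0.1, Day5 replicate 4 with Day7 replicate 4 (0.177). Differently numbered libraries of different days had a median correlation of 0.0009. Of the 28 libraries, 8 correlated best with a library of their own number, a count that was not set against chance. Depth limits the members with few counts: 6 of 68 were not tested.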
